A study of Mus musculus with 4 samples.

Results

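Endothelial cell genes were measured by RNA-Seq in neutrophils sorted from injured mouse hearts. The list holds 40 genes known from vascular endothelium. It was written by hand with earlier results of these libraries known, so the values below describe its genes, and a gene counted as a member where the files held its name. All 40 were present, of 25655 genes in all. Neutrophils with high (SiglecF hi) and low (SiglecF lo) SiglecF were taken from male WT and *Cd300a-/-* mice (C57BL/6 background) after myocardial ischemia and reperfusion (MI/R), a surgical occlusion of the left anterior descending artery that is then released. Hearts were digested on day 3 after MI/R, and CD45.2+CD11b+Ly6G+ cells were sorted by SiglecF. The sample titles hold plus and minus, which were read as SiglecF hi and SiglecF lo. The 4 groups were thus WT SiglecF hi, *Cd300a-/-* SiglecF hi, WT SiglecF lo and *Cd300a-/-* SiglecF lo neutrophils, with 1 library per group, each from neutrophils of 8 mice pooled. CD300a is an inhibitory receptor that binds phosphatidylserine on dying cells, and the comparisons asked how its loss and the SiglecF subset relate to gene expression.

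Endothelial cells line the blood vessels and hold to each other through VE-cadherin and claudin-5. They grow and survive through receptors for VEGF, angiopoietins, BMPs and Notch ligands, under transcription factors of the ETS and SOX families. In the heart their dense capillaries deliver fatty acids to the muscle, and after infarction vessels regrow from those that remain.

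All genes together had 19278243 counts in the WT and 17632989 in the *Cd300a-/-* library of SiglecF hi neutrophils, and 9631901 and 10988619 in those of SiglecF lo neutrophils. Levels are the deposited TPM (transcripts scaled for length and library size), and ratios are log2 TPM ratios between libraries. The range in brackets after a ratio is its 95% counting interval, computed from the counts of both libraries (exact binomial). It holds counting error alone and, as the protocol had no molecular identifiers, may count copies of 1 molecule as several. Because each group had 1 library, the spread between mice is unknown, there are no P values, and every difference is one between these libraries. A ratio past 1 in either direction, a 2-fold difference, was counted among the 11472 genes whose TPM averaged over 1 across the libraries. All 40 endothelial genes passed this limit, and 24 had a mean over 10 TPM. Positions are those of the files, on GRCm39.

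*Cd300a* (ENSMUSG00000034652, chromosome 11 from 114780867 to 114795480) checked the genotype labels, at 163, 0.740, 127 and 1.06 TPM (6640, 27, 3024 and 28 counts) in WT SiglecF hi, *Cd300a-/-* SiglecF hi, WT SiglecF lo and *Cd300a-/-* SiglecF lo neutrophils. Values of a gene in the 4 libraries are given in this order throughout. *Siglecf*, the sorting marker of the subsets, was at 354, 405, 11.3 and 15.3 TPM. The neutrophil genes *S100a9* and *Csf3r* were at 13719, 15355, 76228 and 89228 TPM and at 1069, 1109, 1443 and 1749.6 TPM. A list of 13 genes of neutrophils and of the sort, with *S100a9* its most abundant, summed to 28932, 33877, 155456 and 203929 TPM. Of its granule enzyme genes of neutrophil precursors, *Mpo* was at 0 in WT SiglecF hi, and *Elane* at 0 in *Cd300a-/-* SiglecF hi and WT SiglecF lo neutrophils. *Ly6g*, the neutrophil marker of the sort, was at 11.1, 41.9, 330.4 and 889 TPM (92, 310, 1599 and 4746 counts), and was thus below several endothelial genes in WT SiglecF hi neutrophils. *S100a9* and *Csf3r* were above every endothelial gene in every library.

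The endothelial genes held little of each library but were detected in all of them. Every one of the 40 had counts in every library, and the lowest count of any member was 50, 29, 32 and 9. Together they took 18789, 21246, 17755 and 9142 counts, or 0.0975, 0.120, 0.184 and 0.0832% of all counts. Their summed TPM was 838.3, 1034, 1351 and 531.7. The median gene of the list was at 9.01, 11.3, 16.3 and 6.80 TPM, where the median of all genes tested was 15.6, 15.9, 9.71 and 9.43 TPM. WT SiglecF lo neutrophils thus held the highest endothelial level and *Cd300a-/-* SiglecF lo neutrophils the lowest. Above 10 TPM were 17, 25, 28 and 14 of the 40 genes. *Fabp4*, which encodes a fatty acid carrier of capillary endothelium and fat cells, was the most abundant member in each library and made up 31.0, 33.8, 30.5 and 21.9% of the summed TPM. *Flt4*, a VEGF receptor mainly of lymphatic vessels, was the least abundant in each.

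Single genes were mostly highest and lowest in the same libraries as their sum. Of the 40, 30 were highest in WT SiglecF lo, 7 in *Cd300a-/-* SiglecF hi (*Emcn*, *Rasip1*, *Kdr*, *Flt1*, *Vwf*, *Aqp1* and *Gpihbp1*), 2 in WT SiglecF hi (*Cd34* and *Myct1*) and 1 in *Cd300a-/-* SiglecF lo neutrophils (*Nos3*). Of all genes tested, 11.3% were highest in WT SiglecF lo neutrophils. The lowest library was *Cd300a-/-* SiglecF lo for 29 members, WT SiglecF hi for 8, WT SiglecF lo for *Myct1* and *Rasip1*, and *Cd300a-/-* SiglecF hi for *Cldn5*, and it was *Cd300a-/-* SiglecF lo for 44.9% of all genes tested.

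**Figure D1:**
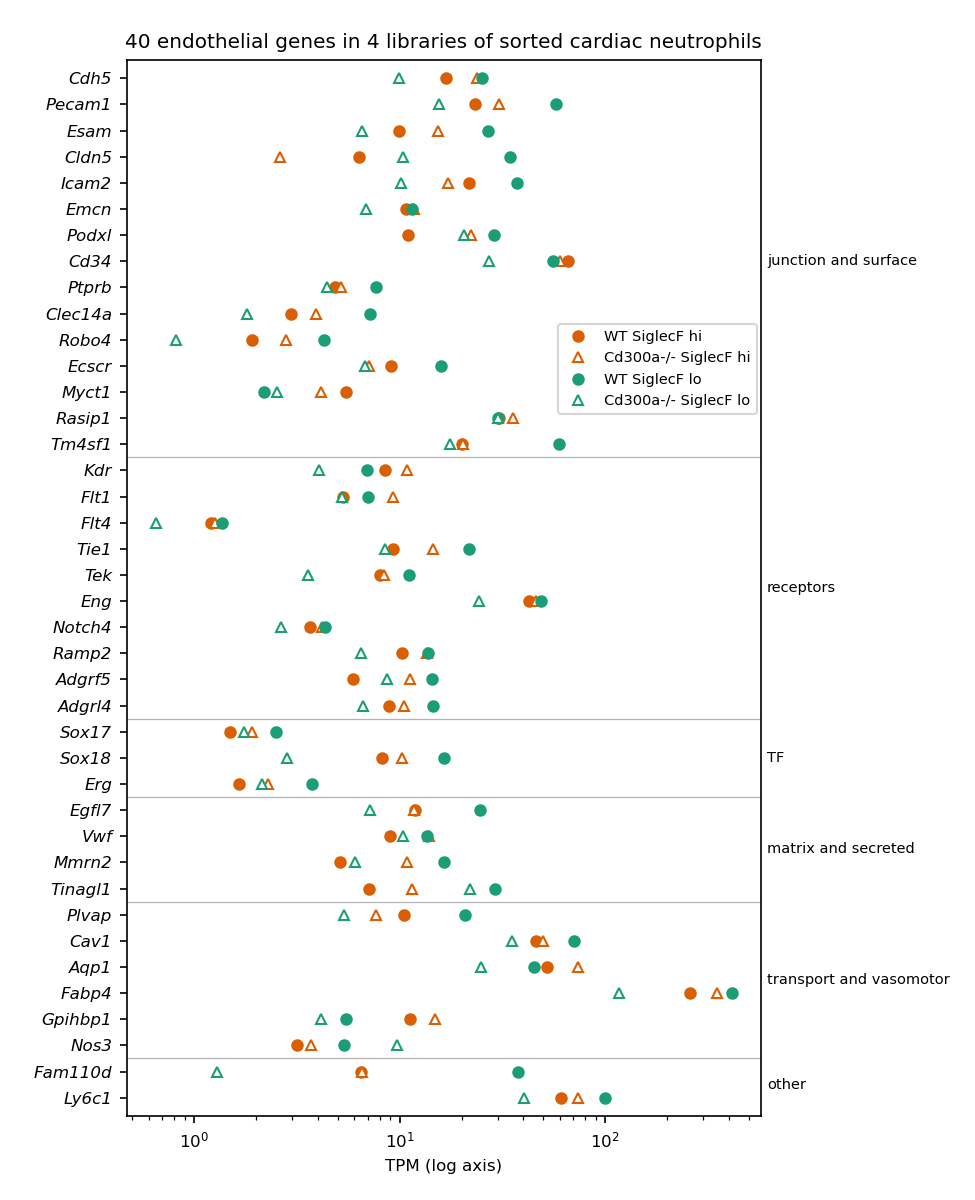
TPM of the 40 endothelial genes (log axis) in each of the 4 libraries, 1 point per library, grouped by role. Filled circles are WT and open triangles *Cd300a-/-*, orange SiglecF hi and green SiglecF lo neutrophils; 30 genes are highest in WT SiglecF lo and 29 are lowest in *Cd300a-/-* SiglecF lo neutrophils.

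Loss of CD300a went with lower endothelial transcripts in SiglecF lo neutrophils. In the *Cd300a-/-* against the WT library, 37 of the 40 genes were lower (51.5% of all 11373 genes compared were lower), and 23 were past 2-fold, all of them lower, where 25.9% of all genes were past 2-fold in either direction and 14.7% past it downward. The counting interval lay below 0 for 35 members (37.1% of all genes), above 0 for *Nos3* alone (35.0% of all genes), and held 0 for 4. The median ratio was -1.09, with quartiles at -1.77 and -0.73, against a median of -0.03 and quartiles at -0.58 and 0.48 over all genes. The summed TPM of the list gave a ratio of -1.35 (-1.39 to -1.30), 2.54-fold lower in *Cd300a-/-* neutrophils. The source of these transcripts in cells sorted as CD45.2+CD11b+Ly6G+ was not tested. If it was endothelial cells, fewer of them and less RNA in each cannot be told apart in bulk libraries. Between the same libraries the list of neutrophil genes went from 155456 TPM in WT to 203929 TPM in *Cd300a-/-* neutrophils.

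In SiglecF hi neutrophils the same genes were mostly a little higher without CD300a. Of the 40, 33 were higher and 7 lower (53.7% of all 11441 genes compared were higher). Past 2-fold were 3 members, where 6.42% of all genes were. They were *Podxl* and *Mmrn2* upward (3.0% of all genes) and *Cldn5* downward (3.43% of all genes). The counting interval lay above 0 for 22 members (32.2% of all genes), below 0 for 5 (25.1% of all genes) and held 0 for 13. The median ratio was 0.30, against 0.03 over all genes, and 31 genes were higher relative to that median. The summed TPM gave 0.30 (0.27 to 0.34). The genotype comparisons in SiglecF lo and SiglecF hi neutrophils share no library.

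**Figure D2:**
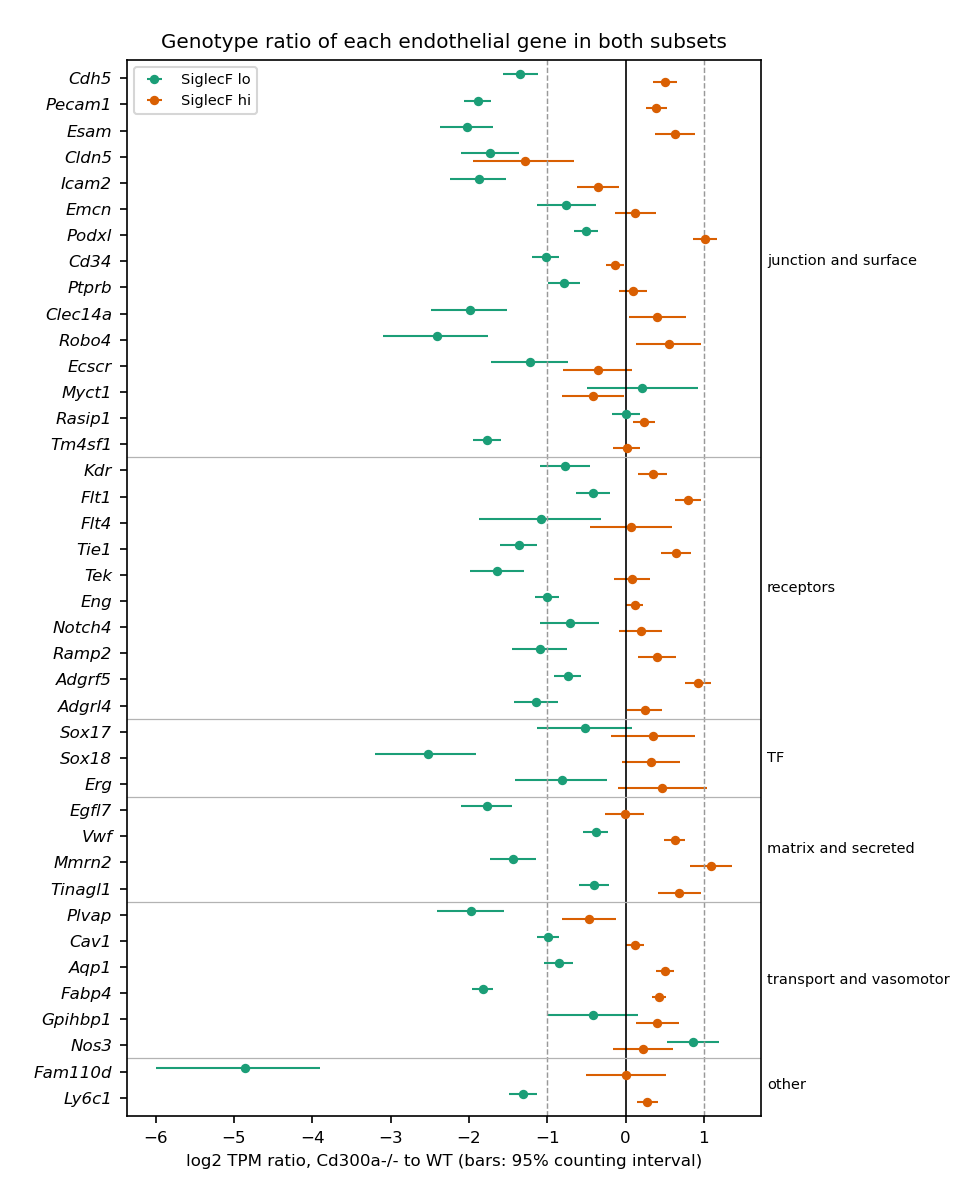
Log2 TPM ratio of *Cd300a-/-* to WT for each endothelial gene in SiglecF lo (green) and SiglecF hi neutrophils (orange), by role, with 95% counting intervals as bars and dashed lines at a 2-fold difference. In SiglecF lo neutrophils 37 of 40 points lie below 0, and in SiglecF hi neutrophils 33 of 40 lie above 0.

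Among the 15 genes of cell junctions and the endothelial surface, 13 were lower in *Cd300a-/-* SiglecF lo neutrophils (51.5% of all genes) and 10 of these past 2-fold (14.7% of all genes), with a median ratio of -1.34. *Cdh5* (ENSMUSG00000031871, chromosome 8 from 104828257 to 104871143) encodes VE-cadherin, the adherens junction protein that defines endothelium, and was at 16.9, 23.9, 25.1 and 9.91 TPM (622, 788, 543 and 236 counts). It was thus highest in WT SiglecF lo neutrophils, with *Cd300a-/-* SiglecF hi neutrophils close behind, and lowest in *Cd300a-/-* SiglecF lo neutrophils. Its ratio of *Cd300a-/-* to WT was -1.34 (-1.57 to -1.12) in SiglecF lo and 0.50 (0.35 to 0.66) in SiglecF hi neutrophils. *Pecam1* (CD31), a junction protein also found on platelets and leukocytes, was at 23.2, 30.4, 57.5 and 15.6 TPM (845, 992, 1227 and 366 counts). *Esam*, an adhesion molecule of endothelial and platelet contacts, was at 9.91, 15.4, 26.9 and 6.58 TPM (219, 304, 348 and 94 counts). Both had opposite genotype ratios in the subsets, as *Cdh5* did: *Pecam1* had -1.89 (-2.06 to -1.72) in SiglecF lo and 0.39 (0.26 to 0.53) in SiglecF hi neutrophils. *Esam* had -2.03 (-2.37 to -1.70) and 0.63 (0.38 to 0.89).

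*Cldn5* (ENSMUSG00000041378, chromosome 16 from 18595597 to 18597012), which encodes the tight junction protein claudin-5, was at 6.36, 2.61, 34.2 and 10.3 TPM (79, 29, 249 and 83 counts). Unlike the genes above, it was lower without CD300a in both subsets, at -1.73 (-2.10 to -1.36) in SiglecF lo and -1.29 (-1.95 to -0.66) in SiglecF hi neutrophils, the latter from 79 and 29 counts. *Icam2*, a ligand of leukocyte integrins that leukocytes and platelets also carry, was at 21.8, 17.1, 37.4 and 10.2 TPM (288, 202, 289 and 87 counts) and was likewise lower in both, at -1.87 (-2.24 to -1.52) and -0.35 (-0.62 to -0.09). *Tm4sf1*, a tetraspan surface protein of vessels, was at 20.0, 20.2, 59.7 and 17.5 TPM (610, 551, 1063 and 344 counts). WT SiglecF lo neutrophils stood apart from the other libraries for this gene, with a genotype ratio of -1.77 (-1.95 to -1.59) in SiglecF lo and 0.01 (-0.16 to 0.18) in SiglecF hi neutrophils.

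*Emcn*, *Podxl* and *Cd34* encode sialomucins of the luminal surface, and *Cd34* is also expressed by blood progenitors and fibroblasts. *Emcn* was at 10.7, 11.7, 11.5 and 6.82 TPM (244, 238, 153 and 100 counts). *Podxl* was at 10.97, 22.2, 28.9 and 20.4 TPM (518, 936, 799 and 623 counts). *Cd34* was at 65.9, 60.0, 55.4 and 27.3 TPM (1509, 1230, 743 and 404 counts). They differed from each other in their genotype ratios. *Podxl* had the highest ratio of this role group in SiglecF hi neutrophils, 1.013 (0.86 to 1.17), and a smaller one in SiglecF lo neutrophils, -0.50 (-0.65 to -0.35). *Cd34* had -1.02 (-1.20 to -0.84) and -0.14 (-0.24 to -0.03), and *Emcn* -0.76 (-1.13 to -0.38) and 0.12 (-0.14 to 0.39), whose interval in SiglecF hi neutrophils held 0.

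*Ptprb*, the phosphatase VE-PTP that acts on TIE2 and VE-cadherin, was at 4.83, 5.16, 7.65 and 4.43 TPM (545, 521, 505 and 323 counts). *Clec14a*, a lectin-like surface protein that binds multimerin-2, was at 2.97, 3.93, 7.20 and 1.81 TPM (119, 141, 169 and 47 counts). *Robo4*, the roundabout receptor of endothelium, was at 1.91, 2.79, 4.31 and 0.814 TPM (87, 114, 115 and 24 counts). *Robo4* and *Clec14a* had some of the lowest ratios of this role group in SiglecF lo neutrophils, with ratios of -2.40 (-3.10 to -1.76) and -1.99 (-2.49 to -1.51), and were higher in *Cd300a-/-* SiglecF hi neutrophils, with ratios of 0.55 (0.13 to 0.97) and 0.40 (0.04 to 0.77). *Ptprb* had -0.79 (-0.99 to -0.58) and 0.09 (-0.08 to 0.27).

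*Ecscr*, a regulator of endothelial migration, was at 9.09, 7.11, 15.8 and 6.78 TPM (110, 77, 112 and 53 counts), with ratios of -1.22 (-1.72 to -0.74) in SiglecF lo and -0.35 (-0.79 to 0.08) in SiglecF hi neutrophils. The next 2 genes differed from the rest of the group. *Rasip1*, which acts with Ras-family GTPases in forming the vessel lumen, was at 30.4, 35.7, 30.0 and 30.1 TPM (854, 899, 494 and 546 counts) and had about the same level in WT and *Cd300a-/-* SiglecF lo neutrophils, with a ratio of 0.00 (-0.18 to 0.18). Its ratio in SiglecF hi neutrophils was 0.23 (0.10 to 0.37), and 20.4% of its exon bases are shared with *Izumo1*, which had 0 counts, 15.6% with the antisense gene *A030001D20Rik* and 6.93% with the antisense gene *Gm45437*, so its values are uncertain. *Myct1* was at 5.49, 4.12, 2.19 and 2.54 TPM (137, 92, 32 and 41 counts), with SiglecF hi libraries above SiglecF lo libraries in both genotypes. Its genotype ratios were 0.22 (-0.49 to 0.93) in SiglecF lo and -0.41 (-0.81 to -0.02) in SiglecF hi neutrophils.

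The 10 receptors all had the same directions. Each was lower in *Cd300a-/-* SiglecF lo neutrophils (51.5% of all genes), 6 of them past 2-fold (14.7% of all genes), with a median of -1.04. Each was higher in *Cd300a-/-* SiglecF hi neutrophils (53.7% of all genes), none past 2-fold (3.0% of all genes), with a median of 0.30. *Kdr* (ENSMUSG00000062960, chromosome 5 from 76093487 to 76139118), the main signalling receptor for VEGF-A, was at 8.50, 10.8, 6.93 and 4.05 TPM (442, 503, 211 and 136 counts). *Flt1*, a VEGF receptor that monocytes also express, was at 5.31, 9.23, 6.996 and 5.25 TPM (511, 795, 394 and 326 counts). *Flt4* was at 1.20, 1.26, 1.37 and 0.649 TPM (66, 62, 44 and 23 counts). *Kdr* and *Flt1* were highest in *Cd300a-/-* SiglecF hi neutrophils, whereas *Flt4* lay between 1.20 and 1.37 TPM in all libraries but *Cd300a-/-* SiglecF lo. Their genotype ratios in SiglecF lo neutrophils were -0.78 (-1.10 to -0.46), -0.42 (-0.63 to -0.20) and -1.08 (-1.87 to -0.32), and those in SiglecF hi neutrophils 0.35 (0.16 to 0.53), 0.80 (0.64 to 0.96) and 0.07 (-0.45 to 0.59).

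*Tie1* was at 9.29, 14.5, 21.8 and 8.45 TPM (371, 519, 509 and 218 counts). *Tek*, which encodes the angiopoietin receptor TIE2 and is also expressed by some monocytes, was at 7.97, 8.42, 11.1 and 3.56 TPM (329, 311, 268 and 95 counts). Both of these receptor kinases were highest in WT SiglecF lo neutrophils, and their genotype ratios there were -1.37 (-1.60 to -1.13) and -1.64 (-1.99 to -1.30). *Tie1* was higher without CD300a in SiglecF hi neutrophils, at 0.64 (0.45 to 0.84), and the interval of *Tek* held 0, at 0.08 (-0.15 to 0.31). *Eng*, a coreceptor of BMP and TGF-β ligands that macrophages and fibroblasts also make, was at 42.3, 45.8, 48.9 and 24.4 TPM (1354, 1312, 915 and 504 counts), with ratios of -1.002 (-1.16 to -0.84) in SiglecF lo and 0.11 (0.00 to 0.23) in SiglecF hi neutrophils. *Notch4*, the Notch receptor of endothelium, was at 3.67, 4.19, 4.33 and 2.64 TPM (217, 222, 150 and 101 counts), with ratios of -0.71 (-1.09 to -0.34) and 0.19 (-0.08 to 0.47).

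*Ramp2*, the partner of the adrenomedullin receptor, was at 10.2, 13.5, 13.8 and 6.46 TPM (262, 310, 207 and 107 counts), with ratios of -1.09 (-1.44 to -0.75) in SiglecF lo and 0.40 (0.16 to 0.65) in SiglecF hi neutrophils. In GENCODE M21 33.4% of its exon bases are shared with *Vps25* on the same strand, which had 1310, 1059, 622 and 593 counts, so its values are uncertain. The adhesion G protein-coupled receptors *Adgrf5* and *Adgrl4* were at 5.89, 11.2, 14.4 and 8.63 TPM (466, 792, 667 and 441 counts) and at 8.86, 10.5, 14.6 and 6.63 TPM (331, 351, 319 and 160 counts). *Adgrf5* was lowest in WT SiglecF hi neutrophils and had the largest ratio of the receptors there, 0.93 (0.76 to 1.09), with -0.74 (-0.92 to -0.56) in SiglecF lo neutrophils. *Adgrl4* had -1.14 (-1.42 to -0.86) in SiglecF lo and 0.24 (0.02 to 0.47) in SiglecF hi neutrophils.

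Of the 3 transcription factors, *Sox17* and *Erg* were low in every library. *Sox18* (ENSMUSG00000046470, chromosome 2 from 181311629 to 181313433), which acts in vessel and lymphatic development, was at 8.16, 10.2, 16.3 and 2.83 TPM (116, 130, 136 and 26 counts). *Sox17*, a factor of arterial endothelium that shares 16.9% of its exon bases with the antisense gene *Gm37587*, was at 1.496, 1.91, 2.51 and 1.75 TPM (57, 65, 56 and 43 counts). *Erg*, the ETS factor that maintains endothelial identity, was at 1.64, 2.28, 3.76 and 2.14 TPM (50, 62, 67 and 42 counts). All were highest in WT SiglecF lo neutrophils (11.3% of all genes). *Sox18* was the one past 2-fold between genotypes in SiglecF lo neutrophils (14.7% of all genes downward), with a ratio of -2.53 (-3.19 to -1.92), where *Erg* had -0.82 (-1.41 to -0.24) and *Sox17* -0.52 (-1.13 to 0.08). The intervals of all 3 held 0 in SiglecF hi neutrophils, with ratios between 0.32 and 0.47.

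Of the 4 genes for matrix and secreted proteins, all were lower in *Cd300a-/-* SiglecF lo neutrophils (51.5% of all genes), 2 of them past 2-fold (14.7% of all genes), and 3 were higher in *Cd300a-/-* SiglecF hi neutrophils (53.7% of all genes). *Mmrn2* (ENSMUSG00000041445, chromosome 14 from 34097422 to 34126244), which encodes the endothelial matrix protein multimerin-2, was at 5.10, 10.8, 16.4 and 6.04 TPM (178, 338, 334 and 136 counts). It was past 2-fold in opposite directions, -1.44 (-1.74 to -1.15) in SiglecF lo and 1.08 (0.82 to 1.36) in SiglecF hi neutrophils. *Egfl7*, a secreted angiogenic protein whose gene also holds the endothelial microRNA *Mir126a*, was at 11.9, 11.8, 24.5 and 7.18 TPM (274, 243, 331 and 107 counts), with ratios of -1.77 (-2.10 to -1.45) and -0.01 (-0.27 to 0.24). *Vwf*, the clotting protein von Willebrand factor of endothelium and platelets, was at 8.94, 13.8, 13.6 and 10.4 TPM (767, 1062, 682 and 577 counts). *Tinagl1*, a basement membrane protein, was at 7.10, 11.4, 29.1 and 22.0 TPM (197, 284, 472 and 394 counts). The ratios of these genes in SiglecF lo neutrophils were small, -0.38 (-0.55 to -0.22) and -0.40 (-0.60 to -0.21), and smaller in size than in SiglecF hi neutrophils, where they were 0.63 (0.49 to 0.77) and 0.69 (0.42 to 0.96). *Tinagl1* was higher in both SiglecF lo than in both SiglecF hi libraries.

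The 6 genes of capillary transport, lipid uptake, caveolae and vessel tone summed to 383.0, 500.1, 559 and 195.9 TPM, most of it from *Fabp4*. *Fabp4* (ENSMUSG00000062515, chromosome 3 from 10269148 to 10273636) was at 259.8, 349.8, 412 and 117 TPM (2043, 2462, 1898 and 592 counts), with ratios of -1.82 (-1.958 to -1.69) in SiglecF lo and 0.43 (0.34 to 0.51) in SiglecF hi neutrophils. It had 3.54-fold less in the *Cd300a-/-* than in the WT SiglecF lo library. *Gpihbp1*, which anchors lipoprotein lipase to capillaries, was at 11.2, 14.8, 5.48 and 4.13 TPM (206, 244, 59 and 49 counts). It differed from *Fabp4* in that both SiglecF hi libraries were above both SiglecF lo libraries, and its interval held 0 in SiglecF lo neutrophils (-0.41 with bounds of -0.99 and 0.16). *Aqp1*, a water channel of capillaries and red cells, was at 52.3, 74.1, 45.0 and 24.9 TPM (1206, 1529, 608 and 371 counts), with ratios of -0.85 (-1.04 to -0.67) and 0.50 (0.39 to 0.61).

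*Cav1*, the caveolin of endothelial caveolae that fibroblasts also make, was at 45.9, 50.02, 70.3 and 35.3 TPM (1297, 1264, 1162 and 643 counts), with ratios of -0.995 (-1.14 to -0.86) in SiglecF lo and 0.12 (0.01 to 0.24) in SiglecF hi neutrophils. *Plvap*, which forms the diaphragms of fenestrae and caveolae, was at 10.5, 7.62, 20.9 and 5.33 TPM (183, 119, 213 and 60 counts). It was lower without CD300a in both subsets, at -1.97 (-2.41 to -1.55) and -0.46 (-0.81 to -0.12). *Nos3* (ENSMUSG00000028978, chromosome 5 from 24569808 to 24589472), which encodes endothelial nitric oxide synthase, was at 3.17, 3.70, 5.37 and 9.73 TPM (115, 120, 114 and 228 counts), and was the one member highest in *Cd300a-/-* SiglecF lo neutrophils. Its ratio was 0.86 (0.53 to 1.20) in SiglecF lo and 0.22 (-0.16 to 0.60) in SiglecF hi neutrophils. *Nos3* is among the angiogenesis genes that the study chose from these libraries, so its direction is not independent evidence. The library kit does not mark strand, and 25.2% of its exon bases are shared with the antisense gene *Gm15587* and 7.12% with *Atg9b* on the opposite strand (7, 3, 11 and 6 counts), so that reads from these genes cannot be told apart.

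*Fam110d* (ENSMUSG00000050105, chromosome 4 from 133978421 to 133981417) was at 6.51, 6.54, 37.5 and 1.30 TPM (70, 63, 236 and 9 counts), with WT SiglecF lo neutrophils far above the other libraries. Its genotype ratio in SiglecF lo neutrophils, -4.85 (-6.00 to -3.91), was the largest of the list and rests on 9 counts in the *Cd300a-/-* library, and its ratio in SiglecF hi neutrophils was 0.01 (-0.51 to 0.52). *Ly6c1*, a surface protein of endothelium, monocytes and T cells, was at 60.8, 73.6, 100.04 and 40.3 TPM (895, 970, 862 and 383 counts), with ratios of -1.31 (-1.49 to -1.14) and 0.28 (0.14 to 0.41). Its neighbour *Ly6c2*, a near-identical gene of monocytes and neutrophils, was at 270.3, 226, 756 and 706 TPM, so reads may be shared between them and the values of *Ly6c1* are uncertain.

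The difference between the subsets was itself compared. For the 39 members with at least 10 counts in each library, which leaves out *Fam110d*, the ratio of *Cd300a-/-* to WT in SiglecF lo minus that in SiglecF hi neutrophils had an interval below 0 for 36, above 0 for *Nos3*, at 0.64 (0.15 to 1.13), and holding 0 for *Cldn5* and *Myct1*. The median difference was -1.36. Over all 10253 genes with such counts, 35.4% had an interval below 0 and the median was -0.04. For 20 of the 40 members the genotype interval lay below 0 in SiglecF lo and above 0 in SiglecF hi neutrophils, as it did for 9.28% of 11342 genes compared in both. The differences were largest for *Robo4*, at -2.95 (-3.70 to -2.20), *Sox18*, at -2.85 (-3.56 to -2.15), and *Esam*, at -2.66 (-3.08 to -2.25). These intervals hold counting error of 4 libraries and no spread between mice.

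The members did not share 1 ratio within counting error. In SiglecF lo neutrophils the SD of their genotype ratios was 0.928, where the root mean square of the counting errors was 0.199. The ratio of the summed TPM lay inside the interval of 10 of the 40 genes, below that of 18 and above that of 12. No single ratio lay inside the intervals of more than 16 genes, which a ratio between -0.92 and -0.86 did. *Podxl*, *Myct1*, *Rasip1*, *Flt1*, *Vwf*, *Tinagl1* and *Nos3* had intervals above that range and 17 genes had intervals below it. In SiglecF hi neutrophils the SD was 0.441 against counting errors of 0.150, the ratio of the summed TPM lay inside the interval of 18 genes, and the most that 1 ratio reached was 22 genes, at 0.16 to 0.18.

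Of the 40 genes, 12 are also known from leukocytes, platelets, red cells or fibroblasts (*Pecam1*, *Icam2*, *Eng*, *Cd34*, *Fabp4*, *Flt1*, *Vwf*, *Esam*, *Aqp1*, *Cav1*, *Tek* and *Ly6c1*). All 12 were lower in *Cd300a-/-* SiglecF lo neutrophils (51.5% of all genes) and 10 of the 12 higher in *Cd300a-/-* SiglecF hi neutrophils (53.7% of all genes). Their summed TPM gave ratios of -1.47 (-1.53 to -1.40) and 0.31 (0.26 to 0.35). The other 28 genes, without these, had a median of -1.09 and a summed ratio of -1.14 (-1.20 to -1.08) in SiglecF lo neutrophils, with 25 lower (51.5% of all genes) and 15 past 2-fold, all lower (14.7% of all genes). Their median in SiglecF hi neutrophils was 0.28 and their summed ratio 0.29 (0.24 to 0.34).

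A second list of 46 endothelial genes was compared in the same way, 42 of them over the mean TPM limit. In SiglecF lo neutrophils 32 of the 42 were lower and 10 higher without CD300a (51.5% of all genes were lower), with a median of -0.49 and a summed ratio of -0.34 (-0.38 to -0.31). Past 2-fold were 18, 14 lower and 4 higher, against 25.9% of all genes in either direction and 14.7% downward. In SiglecF hi neutrophils 28 were higher and 14 lower (53.7% of all genes were higher), with a median of 0.25 and a summed ratio of -0.04 (-0.07 to -0.01). Past 2-fold were 3, all higher, against 6.42% of all genes in either direction and 3.0% upward. This list was thus more divided than the first. Its 5 most abundant genes, *Cd36*, *Rgcc*, *Stab1*, *Sparcl1* and *Cd93*, are also made by macrophages, other leukocytes or stromal cells. *Stab1*, a scavenger receptor of macrophages and sinusoidal endothelium, was at 226, 215, 41.9 and 79.3 TPM (15855, 13516, 1724 and 3594 counts). *Rgcc* was at 229.5, 248, 170.2 and 125 TPM (1849, 1786, 803 and 648 counts). *Sparcl1*, a matrix protein, was at 74.7, 64.6, 154 and 71.2 TPM (1924, 1491, 2330 and 1186 counts). *Stab1* was higher in *Cd300a-/-* SiglecF lo neutrophils, with a ratio of 0.92 (0.83 to 1.002), and *Rgcc* and *Sparcl1* were lower, with ratios of -0.45 (-0.60 to -0.30) and -1.12 (-1.22 to -1.014). *Cd36*, a fatty acid receptor, had -0.15 (-0.24 to -0.06) in SiglecF lo and -0.22 (-0.26 to -0.17) in SiglecF hi neutrophils. *Cd93*, a lectin-like receptor of endothelium and myeloid cells, had -0.31 (-0.41 to -0.21) and -0.34 (-0.41 to -0.28).

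The largest ratios of the second list in SiglecF lo neutrophils were those of *Shank3*, -4.18 (-5.84 to -2.90), *Cd300lg*, -3.66 (-4.42 to -2.98), and *Aplnr*, -3.47 (-4.21 to -2.81). *Cd300lg*, a capillary member of the CD300 family, was at 12.9, 15.3, 15.5 and 1.22 TPM (311, 328, 218 and 19 counts). *Aplnr*, the apelin receptor, was at 5.33, 6.57, 10.6 and 0.954 TPM (173, 191, 201 and 20 counts). *Shank3* was at 0.9495, 1.26, 1.93 and 0.107 TPM (69, 82, 82 and 5 counts). All 3 were lowest in *Cd300a-/-* SiglecF lo neutrophils. The largest ratios upward were those of *Car4*, 1.75 (0.51 to 3.20), and *She*, 1.60 (0.80 to 2.48). *Ackr1*, a chemokine scavenger of venules, had 0 counts in WT and 11 in *Cd300a-/-* SiglecF lo neutrophils. With the WT library set to a floor of 3 counts it was 3.32-fold higher, and its counting interval lay above a log2 ratio of 1.19. *Acvrl1*, a BMP receptor of endothelium, was at 26.7, 25.9, 32.0 and 89.0 TPM (938, 816, 658 and 2020 counts), with a ratio of 1.48 (1.35 to 1.61), against the main direction of the list. It is among the angiogenesis genes that the study chose from these libraries.

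In SiglecF hi neutrophils the largest ratios of the second list were those of *Timp4*, 1.19 (0.77 to 1.63), *Sele*, 1.03 (0.56 to 1.52), and *Car4*, 1.008 (0.46 to 1.57). *Sele*, the E-selectin of inflamed endothelium that holds rolling neutrophils, was at 2.31, 4.72, 21.7 and 3.33 TPM (59, 108, 324 and 55 counts). *Timp4*, an inhibitor of metalloproteinases, was at 1.33, 3.05, 3.07 and 0.599 TPM (69, 141, 93 and 20 counts). *Sele* and *Timp4* were lower without CD300a in SiglecF lo neutrophils, at -2.70 (-3.14 to -2.28) and -2.36 (-3.13 to -1.65). The largest ratios downward were those of *Procr*, -0.61 (-1.23 to 0.00), *Unc5b*, -0.53 (-0.91 to -0.15), and *Hspg2*, -0.44 (-0.53 to -0.35). *Esm1*, a tip cell gene, was at 0 in all 4 libraries, *Exoc3l* in both SiglecF lo libraries and *Stab2* in *Cd300a-/-* SiglecF lo neutrophils.

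Of 19 ligands of endothelial receptors, 14 passed the mean TPM limit, and in SiglecF lo neutrophils 11 were lower and 3 higher without CD300a (51.5% of all genes were lower). Past 2-fold were 4 of the 14, 3 lower and 1 higher, against 25.9% of all genes in either direction and 14.7% downward. *Vegfa*, the ligand of *Kdr* and *Flt1*, which many cells make, was the most abundant, at 84.8, 102, 43.1 and 63.4 TPM (2623, 2831, 781 and 1266 counts). It was higher in *Cd300a-/-* SiglecF lo neutrophils, with a ratio of 0.56 (0.43 to 0.69), while its receptors were lower. *Angpt2*, the TIE2 ligand that endothelium itself releases, was at 1.70, 1.47, 5.69 and 0.496 TPM (53, 41, 104 and 10 counts), with a ratio of -3.52 (-4.62 to -2.58). *Vegfd* had 16 counts in WT and 0 in *Cd300a-/-* SiglecF lo neutrophils. With the latter set to the floor of 3 counts it was 5.88-fold lower, and its counting interval lay below a log2 ratio of -2.09. *Pgf*, a ligand of *Flt1*, had -1.69 (-2.68 to -0.79). The ligands with the largest ratios upward were *Slit3*, 1.39 (0.93 to 1.87), and *Jag1*, 0.75 (0.42 to 1.09). Without CD300a 8 of the 14 were higher and 6 lower in SiglecF hi neutrophils (53.7% of all genes were higher), and *Angptl4*, -1.06 (-1.44 to -0.69), was the one past 2-fold (6.42% of all genes in either direction and 3.43% downward). The largest ratios there after it were *Slit3*, -0.82 (-1.20 to -0.45), and *Vegfb*, -0.48 (-0.78 to -0.19), downward and *Dll1*, 0.89 (0.26 to 1.54), *Jag2*, 0.66 (0.25 to 1.08), and *Jag1*, 0.38 (0.16 to 0.60), upward. *Vegfb*, *Vegfc* and *Dll4*, which were among the most abundant ligands, had ratios in SiglecF lo neutrophils whose intervals held 0. *Gdf2* was at 0 in all libraries, *Bmp10* in both SiglecF hi libraries, and *Vegfd* and *Angpt1* in *Cd300a-/-* SiglecF lo neutrophils.

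Of 30 receptor partners and signalling genes, 29 passed the limit, 21 were lower and 8 higher in *Cd300a-/-* SiglecF lo neutrophils (51.5% of all genes were lower), with a median of -0.13. Past 2-fold were 6 of the 29, 5 lower and 1 higher, against 25.9% of all genes in either direction and 14.7% downward. Their most abundant genes, *Klf2*, *Ets2* and *Klf4*, are also expressed by leukocytes and had ratios in SiglecF lo neutrophils of 0.00 (-0.05 to 0.05), -0.08 (-0.12 to -0.04) and -0.03 (-0.11 to 0.05). *Id1* and *Id3*, targets of BMP signalling, differed from these. *Id1* was at 77.8, 85.1, 162 and 76.7 TPM (792, 775, 965 and 504 counts) and *Id3* at 88.8, 78.8, 164 and 52.5 TPM (996, 791, 1076 and 380 counts), with ratios of -1.08 (-1.24 to -0.92) and -1.64 (-1.82 to -1.47). *Smad6*, an inhibitor of the same pathway, was at 0.690, 3.26, 7.47 and 0.9501 TPM (18, 76, 114 and 16 counts). Its ratios were in opposite directions, -2.97 (-3.83 to -2.21) in SiglecF lo and 2.24 (1.48 to 3.07) in SiglecF hi neutrophils. *Ramp3*, a partner like *Ramp2*, had 19 counts in WT and 0 in *Cd300a-/-* SiglecF lo neutrophils. With the latter set to the floor of 3 counts it was 6.99-fold lower, and its counting interval lay below a log2 ratio of -2.36. *Notch1*, which the study chose from these libraries, was at 20.9, 25.2, 16.1 and 38.6 TPM (1790, 1935, 810 and 2139 counts), with a ratio of 1.26 (1.14 to 1.38), and *Heyl* and *Calcrl* had 0.56 (0.05 to 1.08) and 0.41 (0.09 to 0.72). Without CD300a 15 of the 29 were higher and 14 lower in SiglecF hi neutrophils (53.7% of all genes were higher), 2 past 2-fold each way (3.0% of all genes upward and 3.43% downward). These were *Smad6* and *Gata2*, 1.98 (1.29 to 2.71), upward and *Foxc1*, -1.17 (-1.70 to -0.67), and *Heyl*, -1.15 (-1.72 to -0.60), downward. Next to them were *Ets1*, 0.41 (0.23 to 0.59), and *Nrp2*, -0.41 (-0.52 to -0.30).

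Markers of special endothelium were sparse. Of 6 lymphatic genes 3 passed the limit, and the list summed to 78.3, 77.0, 56.9 and 34.0 TPM, most of it from *Pdpn*, which fibroblasts and macrophages also make. *Prox1*, the factor that defines lymphatic endothelium, had 14, 1, 15 and 0 counts. *Ccl21a*, *Reln* and *Mmrn1* were likewise at 0 in *Cd300a-/-* SiglecF lo neutrophils, *Reln* also in *Cd300a-/-* SiglecF hi and *Mmrn1* in WT SiglecF lo neutrophils, and *Lyve1*, which macrophages also express, was at 9.41, 17.2, 14.0 and 16.6 TPM (239, 390, 208 and 272 counts). The genotype ratios of *Pdpn* were -1.20 (-1.47 to -0.94) in SiglecF lo and -0.12 (-0.26 to 0.01) in SiglecF hi neutrophils, and those of *Lyve1* 0.25 (-0.02 to 0.51) and 0.87 (0.63 to 1.10). *Ccl21a* had 27, 2, 10 and 0 counts, with a ratio of -3.60 (-6.71 to -1.60) in SiglecF hi neutrophils. Of 5 endocardial genes 3 passed the limit. The list summed to 53.0, 61.6, 42.0 and 47.8 TPM, with *Nfatc1*, which leukocytes also use, the most abundant at 44.3, 53.7, 20.2 and 38.0 TPM, and *Npr3* and *Hapln1* had at most 37 counts in any library. *Cytl1* and *Plagl1* were lower in *Cd300a-/-* SiglecF lo neutrophils, with ratios of -1.20 (-1.74 to -0.68) and -1.16 (-1.73 to -0.61), and *Nfatc1* higher, at 0.91 (0.79 to 1.04). Their ratios in SiglecF hi neutrophils were 0.11 (-0.45 to 0.66), -2.24 (-3.18 to -1.41) and 0.28 (0.21 to 0.35).

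Other cell types of the heart were measured by lists in the same libraries, and the most abundant gene of a list is that of the highest mean TPM over the 4. The 10 genes of pericytes and smooth muscle summed to 141.7, 92.8, 856.4 and 342.9 TPM, with *Acta2* the most abundant at 55.2, 31.5, 365 and 123 TPM and *Abcc9* at 0 in *Cd300a-/-* SiglecF lo neutrophils. Of the 9 over the limit, 8 were lower in *Cd300a-/-* SiglecF lo neutrophils (51.5% of all genes), 5 of them past 2-fold (14.7% of all genes), and the summed ratio of -1.32 (-1.37 to -1.27) lay close to the -1.35 of the endothelial genes. All 9 were lower without CD300a in SiglecF hi neutrophils (53.7% of all genes were higher), at a summed ratio of -0.61 (-0.70 to -0.52), where the endothelial genes were mostly higher. The 10 cardiomyocyte genes summed to 67.6, 118.4, 68.6 and 36.9 TPM, with *Mb* the most abundant by this mean, though not in WT SiglecF hi and not in the SiglecF lo libraries, and *Nppa* at 0 in all but WT SiglecF hi neutrophils. Their summed ratios, -0.90 (-1.08 to -0.71) in SiglecF lo and 0.81 (0.69 to 0.93) in SiglecF hi neutrophils, had the signs of the endothelial ratios. The red cell genes, with *Hba-a2* the most abundant, summed to 893.4, 999.7, 1417 and 780.5 TPM. Their order over the 4 libraries was that of the endothelial genes, and their summed ratios were -0.86 (-0.93 to -0.79) and 0.16 (0.11 to 0.22). The sum rests mainly on *Hba-a2* and *Hbb-bs*. The median ratio of the 5 genes over the limit was -0.14 in SiglecF lo neutrophils, with 2 intervals below 0, and *Hbb-bt* was higher without CD300a, at 0.80 (0.44 to 1.17).

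Other lists differed from these. The 10 fibroblast genes summed to 3192, 2634, 1844 and 1886 TPM, with *Gsn* the most abundant and none at 0, and summed ratios of 0.03 (0.01 to 0.05) in SiglecF lo and -0.28 (-0.29 to -0.26) in SiglecF hi neutrophils. In the SiglecF lo libraries 7 of the 10 were higher without CD300a (51.5% of all genes were lower). *Postn*, 0.82 (0.73 to 0.91), *Pdgfra*, 0.77 (0.40 to 1.14), and *Tcf21*, 1.54 (0.87 to 2.25), differed from the sum there. In the SiglecF hi libraries 8 of the 10 were lower (53.7% of all genes were higher). The 12 macrophage and monocyte genes summed to 7900, 7087, 3760 and 3599 TPM, with *C1qb* the most abundant and none at 0, and summed ratios of -0.06 (-0.09 to -0.04) and -0.16 (-0.17 to -0.14). Both lists had higher summed TPM in SiglecF hi than in SiglecF lo neutrophils, in both genotypes. Relative to the median of all genes the fibroblast sum was higher in SiglecF hi neutrophils in WT, at 0.16, and lower in *Cd300a-/-* neutrophils, at -0.24, and the macrophage sum was higher in both, at 0.44 and 0.26. The 10 platelet genes summed to 880.1, 645.3, 356.2 and 252.1 TPM, nearly all from *Pf4*, which macrophages also make, with 3, 4, 6 and 6 of them at 0, *Gp1bb* and *Gp5* in every library, and summed ratios of -0.50 (-0.62 to -0.38) in SiglecF lo and -0.45 (-0.51 to -0.39) in SiglecF hi neutrophils. The 11 genes of T, NK and B cells summed to 13.7, 21.5, 12.8 and 17.9 TPM, with *Cd79b* the most abundant and 3, 2, 4 and 4 of them at 0. The 10 genes of eosinophils, basophils and mast cells summed to 6.47, 5.81, 2.14 and 1.98 TPM, with *Ccr3* the most abundant and 6, 8, 8 and 8 at 0. The 6 mesothelial and epicardial genes summed to 5.23, 18.5, 3.37 and 2.93 TPM, with *Krt8* the most abundant and 1, 0, 4 and 4 at 0. The part of other cells in the endothelial values was not tested.

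**Figure D3:**
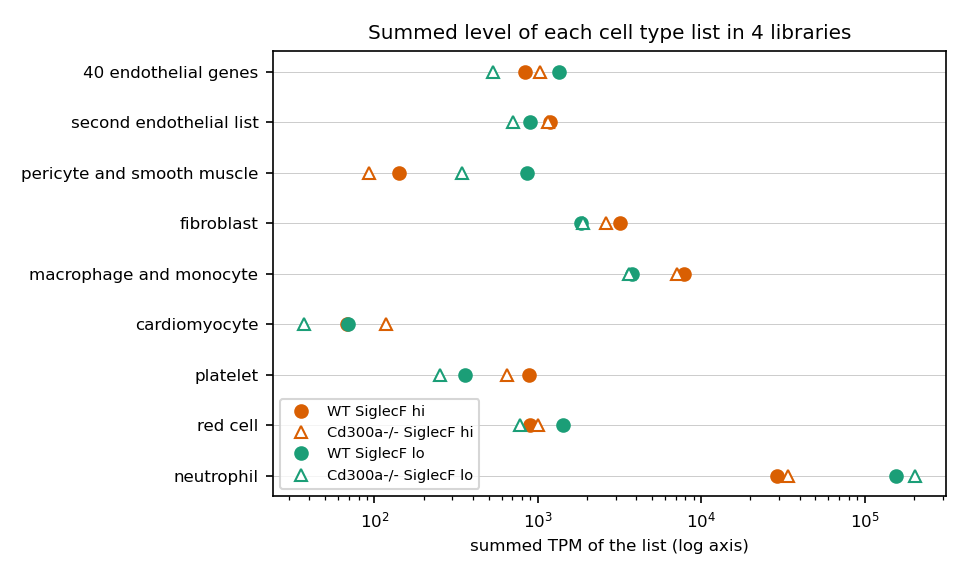
Summed TPM of each cell type list (log axis) in the 4 libraries, 1 point per library, with filled circles for WT, open triangles for *Cd300a-/-*, orange for SiglecF hi and green for SiglecF lo neutrophils. The 40 endothelial genes go from 1351 TPM in WT to 531.7 in *Cd300a-/-* SiglecF lo neutrophils and the pericyte and smooth muscle list from 856.4 to 342.9, while the fibroblast list is at 1844 and 1886 in these libraries and at 3192 and 2634 in WT and *Cd300a-/-* SiglecF hi neutrophils.

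Between the subsets the direction in TPM differed by genotype. Relative to the median of all genes, the median of the list was -1.37 in WT and 0.06 in *Cd300a-/-* neutrophils. Without the 12 members that other cells also make, the centred sums had the same sign, at -1.63 and -0.28. These comparisons use the same libraries as those between genotypes. In TPM most genes were higher in SiglecF hi neutrophils, with a median ratio over all genes of 0.64 in WT and 0.72 in *Cd300a-/-* neutrophils, so ratios are also given relative to that median. In WT, 34 of the 40 endothelial genes were lower in SiglecF hi than in SiglecF lo neutrophils (21.2% of all 11454 genes compared were lower). Past 2-fold were 17, where 37.7% of all genes were, 15 of them lower (5.71% of all genes) and 2 higher (32.0% of all genes), *Gpihbp1* and *Myct1*. The median ratio was -0.73, and -1.37 relative to the median of all genes. After centring on that median 38 genes were lower, 30 of them past 2-fold (12.6% of all genes). The summed TPM gave -0.69 (-0.73 to -0.65), and -1.32 after centring. The most negative ratios were those of *Fam110d*, -2.53 (-2.93 to -2.14), *Cldn5*, -2.43 (-2.81 to -2.06), and *Tinagl1*, -2.03 (-2.28 to -1.79).

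In *Cd300a-/-* neutrophils 37 of the 40 genes were higher in the SiglecF hi than in the SiglecF lo library in TPM (80.7% of all 11433 genes compared were higher). Past 2-fold were 15, where 41.6% of all genes were, 13 of them higher (36.5% of all genes) and 2 lower (5.14% of all genes). The median was 0.78 against 0.72 over all genes, so that relative to all genes the list stood at 0.06, with 22 genes higher and 18 lower. After centring 4 were higher past 2-fold (14.6% of all genes) and 3 lower (13.2% of all genes). The summed TPM gave 0.96 (0.92 to 1.00), and 0.24 after centring. Without the 12 members that other cells also make it gave 0.44, and -0.28 after centring, so the centred sum changed sign. *Cldn5*, -1.99 (-2.65 to -1.36), *Nos3*, -1.40 (-1.73 to -1.07), and *Tinagl1*, -0.94 (-1.17 to -0.72), were lower in SiglecF hi neutrophils. *Fam110d*, 2.34 (1.32 to 3.53), *Sox18*, 1.85 (1.24 to 2.52), and *Gpihbp1*, 1.85 (1.40 to 2.32), had the largest ratios upward. Of all genes past 2-fold in WT, 84.8% were higher in SiglecF hi neutrophils in TPM, 55.4% with the counts scaled by TMM and 52.5% after centring. In *Cd300a-/-* neutrophils these shares were 87.6, 58.3 and 52.5%.

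Promoter sequences are shown because most members were highest in the same library and ETS and SOX factors act at endothelial genes. Of the 40 genes, 23 had entries in the RefSeq promoter table (GRCm38.p6), 31 entries in all, and the 250 bases before each gene start were searched on both strands for GGAAG, the ETS core, and ACAAT, a SOX core, whose letters cannot overlap each other. GGAAG was found in 80.6% of the 31 entries and in 64.1% of 32851 promoters of the same length. ACAAT was found in 25.8% and 27.7% of them. A match describes the letters and is no evidence of binding. The 4 promoters printed are those of the most abundant members with an entry that were highest in WT SiglecF lo neutrophils, 5′ to 3′ on the strand of the gene, with GGAAG or its reverse complement CTTCC in capitals. *Ly6c1* and *Cav1* had 2 entries each, of which the first in the table is printed. They lie at chr15:75048838-75049087 (minus strand) for *Ly6c1*, chr6:17306085-17306334 (plus strand) for *Cav1*, chr2:32646345-32646594 (plus strand) for *Eng* and chr3:57301989-57302238 (minus strand) for *Tm4sf1*.
Ly6c1: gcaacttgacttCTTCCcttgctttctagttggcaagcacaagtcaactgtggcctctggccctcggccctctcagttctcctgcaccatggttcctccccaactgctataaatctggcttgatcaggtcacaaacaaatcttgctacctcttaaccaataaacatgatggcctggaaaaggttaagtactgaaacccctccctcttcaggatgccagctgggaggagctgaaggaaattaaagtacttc
Cav1: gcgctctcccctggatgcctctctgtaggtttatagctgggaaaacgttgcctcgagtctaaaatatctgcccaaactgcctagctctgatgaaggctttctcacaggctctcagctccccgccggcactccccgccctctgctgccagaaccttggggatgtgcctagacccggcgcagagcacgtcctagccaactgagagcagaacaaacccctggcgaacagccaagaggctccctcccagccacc
Eng: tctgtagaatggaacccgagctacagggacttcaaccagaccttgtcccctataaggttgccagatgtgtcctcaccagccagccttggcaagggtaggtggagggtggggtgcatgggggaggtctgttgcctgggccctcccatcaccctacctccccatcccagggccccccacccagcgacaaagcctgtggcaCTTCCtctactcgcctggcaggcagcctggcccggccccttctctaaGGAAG
Tm4sf1: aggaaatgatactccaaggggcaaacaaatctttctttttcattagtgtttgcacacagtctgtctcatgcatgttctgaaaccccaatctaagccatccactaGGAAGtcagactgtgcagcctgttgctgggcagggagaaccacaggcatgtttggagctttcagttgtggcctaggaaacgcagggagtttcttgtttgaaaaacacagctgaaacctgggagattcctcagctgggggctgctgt
The printed window of *Eng* had 2 matches to GGAAG, those of *Ly6c1* and *Tm4sf1* 1 each and that of *Cav1* 0, and none of them held ACAAT. The entries not printed had 4 matches to GGAAG for *Ly6c1* and 0 for *Cav1*. Without an entry were *Cdh5*, *Pecam1*, *Esam*, *Icam2*, *Podxl*, *Ptprb*, *Ecscr*, *Ramp2*, *Sox17*, *Sox18*, *Vwf*, *Mmrn2*, *Plvap*, *Fabp4*, *Gpihbp1*, *Nos3* and *Fam110d*.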

How the data were processed

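The data were 4 poly(A)-selected, paired-end RNA-Seq libraries, 1 per group, each from 8 mice pooled, and groups were taken from the labels. The authors deposited whole-number counts per gene on GRCm39, and whether a count is a read or a pair and how strand was set are not stated. The TPM values were deposited by the authors, who made them with CLC Genomics Workbench. The deposited RPKM values and the deposited CPM signal, which carries 1 factor per library, served only to check how the columns relate. Ratios were computed with Python 3.11.15, numpy 2.4.6, pandas 2.3.3 and scipy 1.17.1, TMM factors with R 4.3.3 and edgeR 4.0.16, and figures with matplotlib 3.10.9. A gene at 0 in 1 library was set to a floor of 3 counts there, and differences between subsets needed 10 counts in each library. The calculation was tested on simulated data. All 40 members were to be named, of the other endothelial lists the 5 genes of highest mean TPM and the 3 largest ratios in either direction per genotype comparison, and of each other list its sum, most abundant gene and genes at 0. 1 gene of the other lists is not reported here. *Acvrl1*, *Hbb-bs*, *Hbb-bt*, *Postn*, *Pdgfra* and *Tcf21* fall outside the rule and were named after their values were seen. *Cd300a*, *Siglecf*, *Csf3r*, *Ly6g* and *Ly6c2* also fall outside the rule. Members and the 15 other lists (second endothelial, ligands, partners, lymphatic, endocardial, neutrophil, platelet, pericyte and smooth muscle, fibroblast, cardiomyocyte, macrophage and monocyte, T, NK and B cell, eosinophil, basophil and mast cell, red cell, mesothelial and epicardial) were chosen with earlier results of these libraries known. Alternatives were TMM scaling, centring on the median of all genes, pseudocounts of 0.1 and 1, mean TPM limits of 10 or none, a log2 threshold of 0.5, and leaving out *Fabp4* or the 12 members other cells also make.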

Additional observations from a re-analysis of the deposited data

Results flagged for a closer look

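For 20 members the genotype ratio was below 0 in SiglecF lo and above 0 in SiglecF hi neutrophils, with both counting intervals clear of 0, as for 9.28% of all genes compared. The log2 ratio of *Cd300a-/-* to WT in SiglecF lo minus that in SiglecF hi neutrophils was, for each, *Cdh5* (-1.85), *Pecam1* (-2.28), *Esam* (-2.66), *Podxl* (-1.51), *Clec14a* (-2.39), *Robo4* (-2.95), *Kdr* (-1.12), *Flt1* (-1.21), *Tie1* (-2.01), *Eng* (-1.12), *Ramp2* (-1.496), *Adgrf5* (-1.66), *Adgrl4* (-1.38), *Vwf* (-1.01), *Mmrn2* (-2.52), *Tinagl1* (-1.09), *Cav1* (-1.12), *Aqp1* (-1.36), *Fabp4* (-2.25) and *Ly6c1* (-1.59). With 1 library per group these differences were not tested, and they hold counting error alone.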

How the results depend on the processing

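No paired analysis was possible because each group had 1 library, and for the same reason no library could be left out in turn. In SiglecF lo neutrophils 19 to 23 of 40 members were past 2-fold between genotypes under the scalings and pseudocounts and without a filter, 16 of the 24 over 10 TPM, and 34 past a log2 threshold of 0.5, and no member changed sign under any scaling. Shares of all genes at 10 TPM and at 0.5 are not given here. The quartiles of all genes were -0.58 and 0.48 in this comparison, and -0.19 and 0.24 between genotypes in SiglecF hi neutrophils. Between subsets they were 0.11 and 1.20 in WT and 0.17 and 1.30 in *Cd300a-/-* neutrophils. Between genotypes in SiglecF lo neutrophils the ratio of the summed TPM was -1.14 without the members other cells also make and -1.18 without *Fabp4*. In SiglecF hi neutrophils 1 member was past the threshold with a pseudocount of 1 and 12 at a log2 threshold of 0.5, the summed ratio was 0.24 without *Fabp4*, and 2 members changed sign under TMM and 2 under centring. Between subsets the scaling changed more. In WT neutrophils 28 members were past 2-fold with TMM, 30 after centring and 10 with a mean TPM over 10, and 29 were past a log2 threshold of 0.5. Of all genes (11454 compared in TPM) 1527 were past 2-fold upward and 1231 downward with TMM, and 1588 and 1439 after centring. The median of the members there was -1.27 with TMM and -1.37 after centring, and the summed ratio -1.23, -1.32 and, without the members other cells also make, -0.99. In *Cd300a-/-* neutrophils the same counts of members were 8, 7, 8 and 31. Of all genes (11433 compared in TPM) 1671 were past 2-fold upward and 1193 downward with TMM, and 1664 and 1505 after centring. The median of the members was 0.20 with TMM and 0.059 after centring, and the summed ratio 0.38, 0.24, 0.44 without the members other cells also make and 0.72 without *Fabp4*. Signs changed there for 11 members with TMM and 15 after centring, and in WT for 4 and 4. The limit of 10 TPM leaves fewer genes tested, and other causes were not tested. Of 640 values of single members under the scalings and pseudocounts, 489 stayed within their counting interval and 151 moved beyond it. Between genotypes 1 value moved, in SiglecF lo neutrophils with a pseudocount of 1. The others were ratios between subsets. In WT 36 moved with TMM and 40 after centring. In *Cd300a-/-* neutrophils 34 moved with TMM, 39 after centring and 1 with a pseudocount of 1. Members with few counts, such as *Fam110d* with 9 in 1 library, have wide intervals.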
